A study of Mus musculus with 28 samples.

Results

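Recipient age was compared in control MPP3, with 4 libraries from aged ("Old") recipients set against 4 from young recipients and all genes of the count table taken as members. These 8 libraries, of 28 in the series, were chosen by their titles, and no measured value entered the choice. Both groups held C57BL/6 bone marrow cells of Mx1-Cre controls. Marrow from young donors had been given to CD45.1 mice, and the MPP3 were taken back 4 months later. The 2 groups therefore share donor genotype, donor age, transplantation and time, and differ in the age class of the recipient, for which the labels give no number. Sequencing pool, described below, was not balanced between the groups. Each library names 1 recipient except old library 4, which names 2. Mx1-Cre, carried by both groups, drives an inducible recombinase from an interferon-responsive promoter. The other samples were MPP3 from Dnmt3a-mutant (D3a-mut) marrow, with 4 libraries from old and 3 from young recipients, and long-term haematopoietic stem cells (LT-HSC), with 7 libraries from control marrow, and they are used here only where the test of a difference needs them.

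MPP3 are multipotent progenitors that lie between the haematopoietic stem cell and the committed myeloid progenitors. They are short-lived, divide often and give rise mainly to granulocytes and monocytes, with a smaller erythroid and megakaryocytic output. After transplantation or under inflammatory signals, marrow produces more of them at the expense of lymphoid-biased progenitors. Because donor cells of 1 age were placed in hosts of 2 age classes, the comparison asks what the host contributes to the transcripts of these progenitors.

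Depth was 8.32 M ± 0.625 counts (SD, n = 4) in old and 7.34 M ± 0.876 (SD, n = 4) in young libraries, and 15165 ± 620 and 14162 ± 769 genes had at least 1 count. Mitochondrial transcripts took 18.5% ± 3.75 of the counts in old and 24.5% ± 2.96 in young libraries. Neither the mitochondrial share (exact 2-sided permutation p = 0.0857, adjusted p = 0.229 over 8 library measures) nor the other 7 measures passed. The 70 splits of 4 against 4 allow no p below 0.0286. After adjustment over 8 measures, 1 measure at that limit could not pass alone, so these results do not show that the groups were alike. Young libraries 1 and 3 stood apart from the other 6 on the first 2 principal components of log2(CPM + 2), where CPM are counts per 1 M counts after TMM scaling, a factor that sets the bulk of genes level between libraries. Young library 2 stood apart on the third component (15.4% of variance, against 24.2% and 19.9% for the first 2), so that 3 of the 4 young libraries each stood apart on 1 of them. Correlations of these values across genes were 0.856 to 0.914 within the old group and 0.781 to 0.853 within the young group. Among the 8596 genes with a mean of at least 10 CPM the median SD of log2(CPM + 2) was 0.508 in old and 0.696 in young libraries. Sequencing pool, as inferred from the column names, was not balanced: old libraries 1 and 2 were in pool 1, while old libraries 3 and 4 and all young libraries were in pool 2. Transcripts of a Kit+ myeloid progenitor were present in all 8 libraries. Kit was measured at 294 to 468 CPM and Mpo at 7482 to 20745 CPM, while the LT-HSC surface marker Slamf1 lay between 0 and 11.4 CPM. Slamf1 does not stand for all LT-HSC genes: of a list of 40 such genes, 27 to 39 had counts in each library. Their summed level was 1021 to 2030 CPM in old and 1127 to 1700 CPM in young libraries. Cd48 was at 19.9 to 78.8 CPM and Flt3 at 53.2 to 181 CPM.

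**Figure D1:**
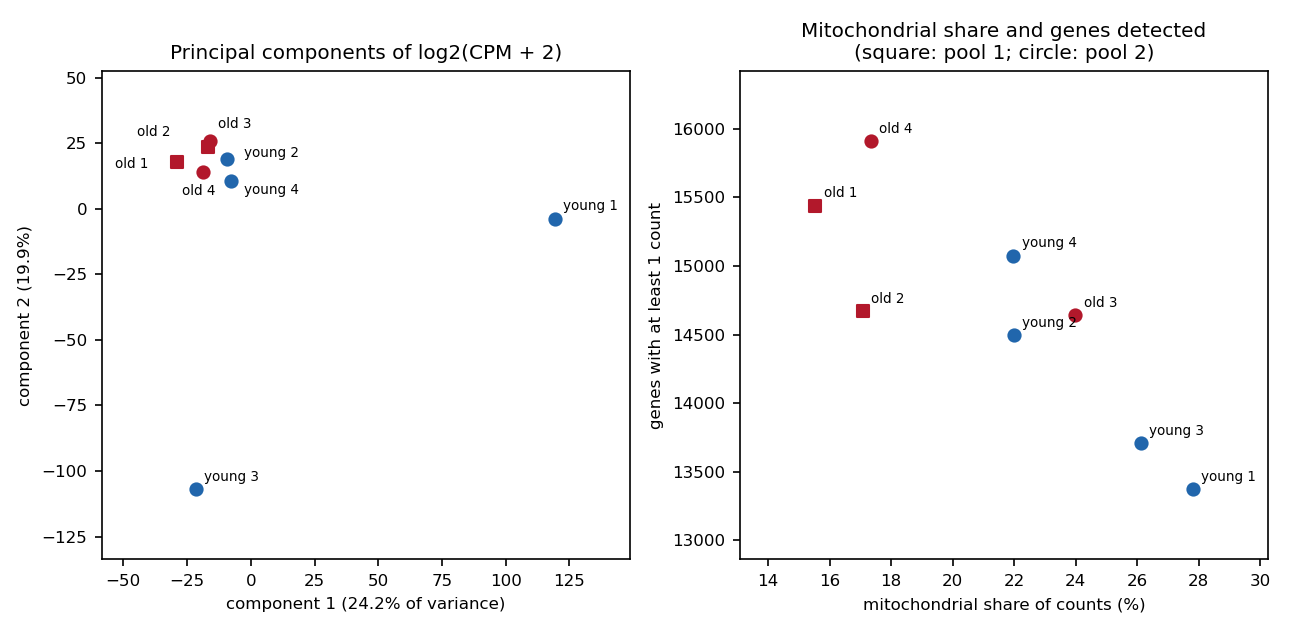
Left, the 8 control MPP3 libraries on the first and second principal components of log2(CPM + 2), with the percent of variance on each axis. Right, the percent of counts from mitochondrial genes against the number of genes with at least 1 count. Red marks old and blue young recipients, squares pool 1 and circles pool 2. Young libraries 1 and 3 lie away from the others on the left and have the largest mitochondrial shares, 27.8% and 26.1%, on the right.

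No single gene passed the threshold between old and young recipients in control MPP3, and the differences described below are of values and of gene groups. Of 13933 genes tested with edgeR's quasi-likelihood test, 0 (0%) had a Benjamini-Hochberg adjusted p under 0.05, and the smallest adjusted p was 0.801. At an unadjusted p under 0.05, called the unadjusted threshold, there were 853 genes (6.12%), of which 420 (3.01%) were higher and 433 (3.11%) lower in old recipients. CPM did not overlap between the 4 old and the 4 young libraries for 572 genes (4.11%), with 344 (2.47%) higher and 228 (1.64%) lower. Fitted log2 changes were positive for 46.9% of genes and their median was -0.06. Without TMM scaling the median moved to 0.14, and 676 of the 913 genes under 0.05 (74.0%, against 49.2% with TMM) were higher in old recipients. limma-voom also called 0 genes, and DESeq2 called 31, of which 14 were higher and 17 lower. In 24 of those 31 over 50% of the summed CPM came from 1 library, most often young library 1 (11 genes), and 12 had CPM without overlap. The spread between libraries was wide: the common biological coefficient of variation was 0.882 and the median SE of a log2 change was 0.79, or 0.32 among the 1644 genes with a mean of at least 100 CPM. In data simulated at these depths, with 1 spread per gene for all groups, edgeR called 0% of genes given a log2 change of 1, 28% of those given 2 and 54% of those given 4. The wider spread among young libraries was not simulated, so these rates are only a rough guide to this comparison. In what follows "higher" and "lower" describe values, since no gene passed the adjustment.

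**Figure D2:**
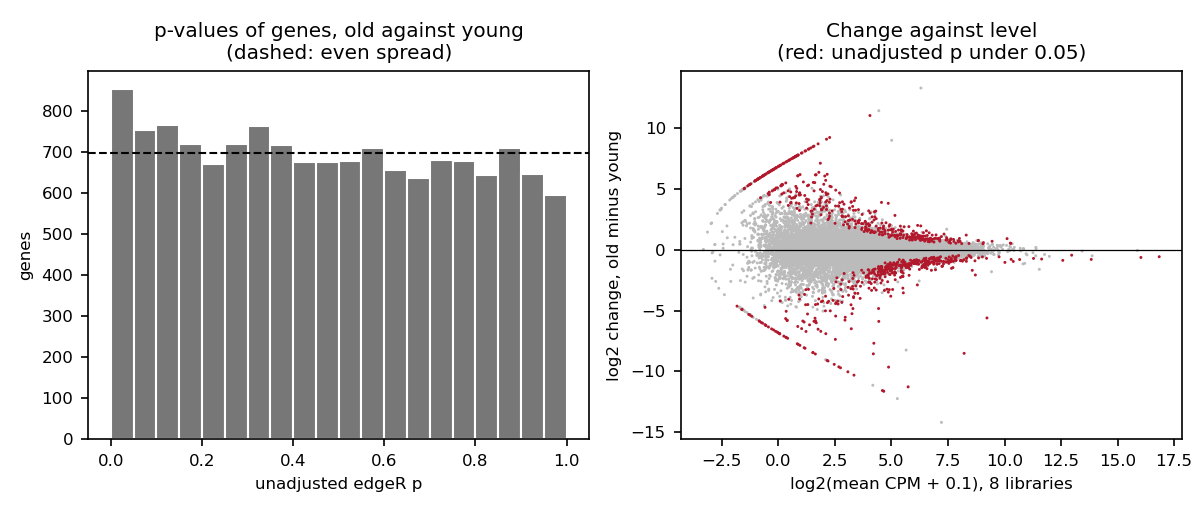
Left, numbers of genes in 20 equal bins of the unadjusted edgeR p for 13933 genes, with a dashed line at an even spread. Right, log2 change (old minus young) against log2(mean CPM + 0.1), where red points are the 853 genes under 0.05. The lowest bin is the tallest, at 853 genes, and changes narrow as the level rises.

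The gene with the smallest p among those named by a fixed rule as higher was Nfkbie (chr17:45555703-45563169 in GRCm38), which encodes the NF-kB inhibitor IkB epsilon. It measured 35.1, 33.6, 28.9 and 16.5 CPM in old recipients and 1.57, 4.1, 1.28 and 5.43 CPM in young recipients. Every old library was above every young one, for a log2 change of 3.19 ± 0.76 (SE; adjusted p from edgeR = 0.801). DESeq2 gave it an adjusted p of 0.00181. Ppp1r2 (chr16:31251537-31275277), an inhibitory subunit of protein phosphatase 1, had 47.3, 40.1, 68.6 and 38.8 CPM against 4.13, 9.53, 18.3 and 15.1 CPM. This gave 2.05 ± 0.49 on the log2 scale (SE), with an adjusted p of 0.801 in edgeR and 0.00696 in DESeq2. Vdr, the vitamin D receptor, had 20.2, 15.3, 28.5 and 12.7 CPM in old recipients, whereas 3 of the 4 young libraries were below 1 CPM and young library 2 was at 3.62 CPM. At higher abundance, Cs, the citrate synthase of the tricarboxylic acid cycle, had 172 to 284 CPM against 99.98 to 139.8 CPM. Med13l, a subunit of the kinase module of Mediator, had 166 to 211 CPM against 86.2 to 105 CPM. Prkar1a, the regulatory subunit of protein kinase A, had 99.98 to 275 CPM against 66.9 to 84.2 CPM. Log2 changes of the other 6 (Abcf1, Phf14, Msh6, Ipo11, Pdzd8 and Glb1l) ran from 0.81 to 2.82. In Glb1l, old library 2 alone reached 196 CPM and the other old libraries 15.9 to 19 CPM, above 2.93 to 12.4 CPM in young recipients.

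Among the 12 genes named as lower, Rasgrp3 (chr17:75435896-75529054), a guanine nucleotide exchange factor for Ras and Rap1, had the smallest p. It was at 1.19, 2.1, 1.15 and 1.29 CPM in old recipients and at 114, 5.55, 41.3 and 4.61 CPM in young ones. All old libraries were low, and young libraries 1 and 3 carried most of the young signal. On the log2 scale this came to -4.84 ± 1.16 (SE), with an adjusted p of 0.801 in edgeR and 0.00018 in DESeq2. Mmp28 (chr11:83440768-83463071), a matrix metalloproteinase, had 6.69, 9.36, 3.18 and 5.46 CPM against 149, 61.9, 11.7 and 17.4 CPM. Pde4dip, an anchor of phosphodiesterase at the centrosome and Golgi, had 11 to 25.1 CPM against 31.4 to 167 CPM, again highest in young libraries 1 and 2. Hspa4l, an HSP110-family chaperone, had 72.2 to 101 CPM against 129 to 397 CPM. Rsrp1 had 115 to 151 CPM against 199.9 to 296 CPM, a log2 change of -1.0 ± 0.28 (SE; adjusted p from edgeR = 0.801). Others were Pigc, Fam160a2, Alkbh1, Vezt and the mitochondrial mt-Co2 and mt-Nd6. Exons of other annotated genes overlapped those of 14 of the 36 named genes, in each case over 15% of the exon length or less.

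**Figure D3:**
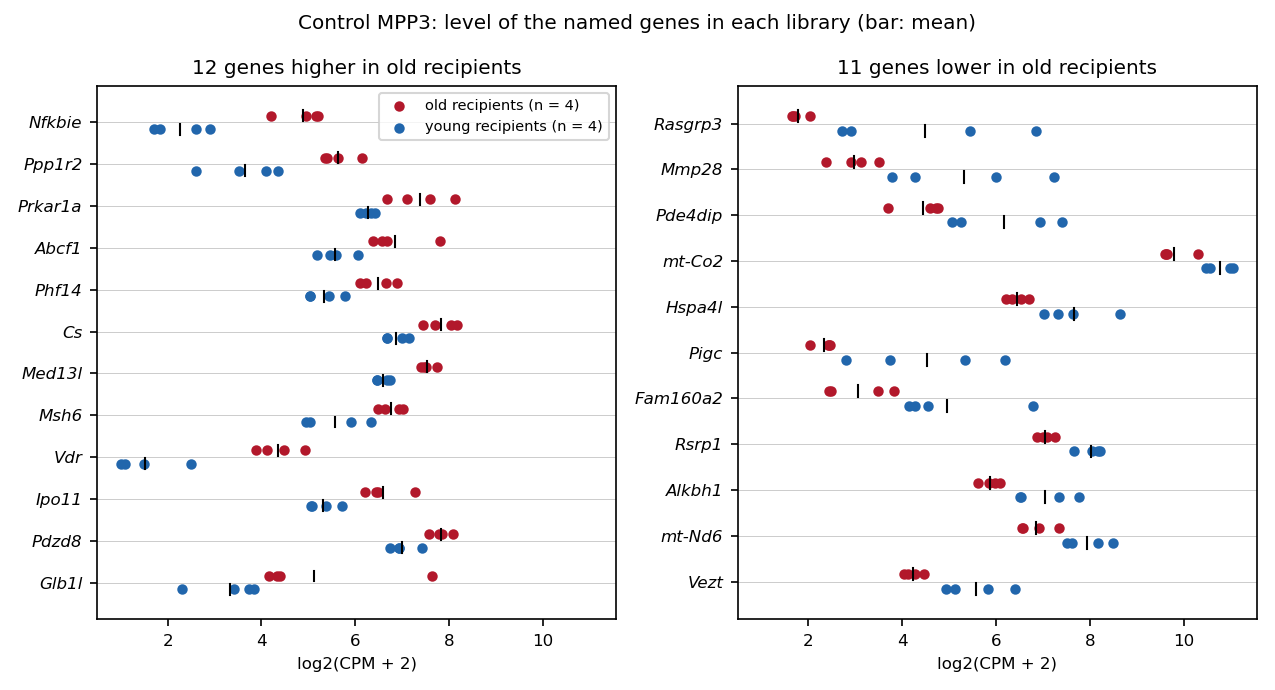
Level of 12 higher and 11 lower named genes in each library as log2(CPM + 2), with old recipients in red, young recipients in blue (n = 4 each) and the group mean as a bar. The groups do not overlap for any of the 23 genes shown, which was part of the rule that chose them. Young libraries spread widely in Rasgrp3, Mmp28, Pigc and Fam160a2, and 1 old library stands far above the rest in Glb1l.

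TNF is an inflammatory cytokine that signals through the receptors encoded by Tnfrsf1a and Tnfrsf1b, both of which feed into NF-kB, and the series is titled for these receptors. Tnf itself (chr17:35199381-35202007) had 27.9, 6.21, 14.8 and 19.9 CPM in old recipients and 0.427, 0, 3.67 and 0.543 CPM in young recipients. Every old library was above every young one, and the fit gave a difference of 3.90 ± 1.28 in log2 units (SE; adjusted p from edgeR = 0.801). Tnfrsf1a overlapped fully, with 16.6 to 40.6 CPM in old and 12.5 to 70.9 CPM in young libraries (log2 change -0.45 ± 0.60, SE). Tnfrsf1b had 19.7 to 70.8 CPM against 17.8 to 62 CPM, and its log2 change of 0.01 ± 0.61 (SE) turned to -0.09 with limma-voom. Of 44 tested genes of the TNF superfamily and its proximal signalling, 18 were higher in old recipients with a median log2 change of -0.17, against -0.06 over all genes. That median was -0.05 without young library 1, 0.0048 within pool 2 and 0.04 without TMM scaling. Under the unadjusted threshold were 4 higher genes and 1 lower gene of the 44, beside 3.01% and 3.11% of all genes, among them the initiator caspase Casp8 (69.8 to 173 against 43.5 to 87.1 CPM) and Rbck1, a subunit of the linear ubiquitin ligase (56.5 to 72.1 against 53.7 to 247 CPM). For Rbck1, young library 1 held the 247 CPM and the other young libraries 53.7 to 102 CPM. The ligand TRAIL (Tnfsf10) had 28.8 to 78.3 CPM in old and 12.8 to 49.9 CPM in young libraries.

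Among NF-kB targets and regulators, 27 of 47 tested genes were higher in old recipients, with a median of 0.19. That median was -0.03 without old library 3, 0.06 without young library 1, 0.02 without young library 4 and 0.41 without young library 3. Besides Nfkbie, the higher values included the inhibitor Nfkbia, at 16.6, 33.3, 63.8 and 35.3 CPM against 13.9, 4.94, 23.1 and 19.3 CPM. The p65 subunit Rela had 37.2 to 76.3 CPM against 18.1 to 48.6 CPM. The atypical IkB protein Bcl3 lay the other way, at 2.42 to 16.4 CPM in old and 2.53 to 68 CPM in young libraries. Young library 1 held the 68 CPM, and the other young libraries were at 2.53 to 25.9 CPM. Neither Nfkbia (log2 change 1.28 ± 0.68, SE; edgeR adjusted p = 0.823) nor Rela (0.95 ± 0.57, SE; edgeR adjusted p = 0.87) had groups without overlap. Interferon-response genes were higher in 38 of 68 (median 0.10), with Ifit1 lower at 0.892 to 12.9 CPM against 2.31 to 135 CPM and Lgals3bp higher at 115 to 198 CPM against 22.1 to 102 CPM. For Ifit1, young library 1 held the 135 CPM and the other young libraries 2.31 to 15.9 CPM. The interferon median was -0.02 without old library 1, -0.0022 without young library 1, -0.07 within pool 2 and 0.29 without TMM scaling. The immediate-early transcription factor Egr1 had 78.9 to 324 CPM in old and 37.7 to 129 CPM in young libraries, in a list with 14 of 28 genes higher.

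Genes of the G1/S transition and DNA replication lay higher in old recipients as a group. E2F factors drive these genes as cells commit to S phase. The list was higher in 41 of 50 members (82.0%, against 46.9% of all tested genes) with a median log2 change of 0.37, and 7 of the 50 were under the unadjusted threshold, all of them higher, beside 3.01% of all genes. The mean of log2(CPM + 2) over the list was 5.90, 5.67, 5.56 and 5.86 in old recipients and 4.94, 5.42, 5.33 and 5.37 in young recipients, so the groups did not overlap. Over the 20 alternative settings the median ranged from 0.23 with pool as a covariate to 0.58 without TMM scaling, and it was 0.36 without young libraries 1 and 3. Within pool 2, which holds 2 old and 4 young libraries, it was 0.34, with 38 of 50 members higher. The mismatch repair gene Msh6, which binds DNA mispairs behind the fork, had 127, 96.5, 87.6 and 120 CPM in old and 29, 78.4, 31 and 58.2 CPM in young libraries (log2 change 1.13 ± 0.36, SE; edgeR adjusted p = 0.801). Mcm7, a subunit of the replicative helicase, had 109, 158, 88 and 127 CPM against 85.1, 56.1, 64.2 and 62.1 CPM. The sliding clamp Pcna had 206 to 256 CPM against 132 to 195 CPM and the S-phase cyclin Ccne2 had 17.6 to 34.6 CPM against 6.83 to 14.3 CPM, both without overlap. The helicase subunit Mcm6 (129.9 to 299.9 against 73.5 to 174 CPM), the replicative ligase Lig1 (114 to 166 against 66.4 to 118 CPM) and the histone chaperone subunit Chaf1b (25.5 to 83.9 against 4.95 to 26.9 CPM) were higher on average with overlap. Mitotic genes were divided, with 26 of 60 G2/M genes higher and a median of -0.05 that turned to 0.14 without TMM scaling. The kinetochore checkpoint protein Mad2l1 had 24.6 to 71.9 CPM in old and 60.5 to 109 CPM in young libraries, while the checkpoint kinase Bub1 had 52.4 to 78.4 CPM in young and 73.3 to 163 CPM in old libraries.

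The promoters of 4 of these replication genes are printed because they hold an E2F motif, a sequence feature found in many members that the choice of the list did not use. RefSeq windows (GRCm38.p6) from 250 bases before to 50 bases after the start were searched on both strands for TTTCCCGC, TTTGGCGC, TTTCGCGC and TTTGCCGC, of which overlapping matches were each counted. A match was present in 704 of 27025 genes (2.61%), in 467 of 9995 tested genes (4.67%), in 19 of 41 G1/S genes with a window (46.3%) and in 3 of 49 G2/M genes (6.12%). Among the G1/S genes, 18 of the 19 with a match were higher in old recipients (median log2 change 0.53) and 16 of the 22 without one (median 0.24). Capitals mark the matches, in windows at chr17:87974800-87975099, plus strand, chr5:138171834-138172133, minus strand, chr1:128359656-128359955, minus strand and chr7:13278576-13278875, plus strand, each written 5′ to 3′ on the gene's strand.
Msh6: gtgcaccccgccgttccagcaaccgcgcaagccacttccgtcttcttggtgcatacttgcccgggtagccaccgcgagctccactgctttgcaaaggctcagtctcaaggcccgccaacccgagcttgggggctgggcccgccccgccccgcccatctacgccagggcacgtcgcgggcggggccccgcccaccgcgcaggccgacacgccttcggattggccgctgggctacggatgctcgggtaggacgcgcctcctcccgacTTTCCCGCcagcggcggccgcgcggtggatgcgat
Mcm7: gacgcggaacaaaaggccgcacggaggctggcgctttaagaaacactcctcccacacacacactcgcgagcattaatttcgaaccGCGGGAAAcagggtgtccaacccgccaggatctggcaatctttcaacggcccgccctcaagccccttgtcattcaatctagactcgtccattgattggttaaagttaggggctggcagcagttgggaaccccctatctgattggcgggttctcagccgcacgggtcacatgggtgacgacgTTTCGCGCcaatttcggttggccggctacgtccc
Mcm6: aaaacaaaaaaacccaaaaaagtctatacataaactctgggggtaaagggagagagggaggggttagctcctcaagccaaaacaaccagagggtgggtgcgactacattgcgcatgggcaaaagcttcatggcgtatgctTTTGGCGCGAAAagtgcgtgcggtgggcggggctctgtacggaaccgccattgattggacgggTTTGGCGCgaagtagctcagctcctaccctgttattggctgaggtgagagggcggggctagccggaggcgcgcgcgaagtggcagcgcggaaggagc
Lig1: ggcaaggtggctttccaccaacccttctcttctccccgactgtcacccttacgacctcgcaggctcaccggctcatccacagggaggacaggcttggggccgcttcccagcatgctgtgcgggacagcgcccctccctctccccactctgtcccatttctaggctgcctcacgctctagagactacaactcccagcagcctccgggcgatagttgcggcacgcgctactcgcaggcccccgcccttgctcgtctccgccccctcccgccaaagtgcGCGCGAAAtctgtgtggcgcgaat
Mcm6 holds 3 matches, Mcm7 holds 2, and Msh6 and Lig1 hold 1 each. Over all tested genes the median log2 change was 0.07 with a match and -0.05 without one.

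Erythroid genes had the highest median log2 change of the 32 lists in this fit. Of 22 tested members 21 were higher in old recipients, the median log2 change was 1.27, and all 20 alternatives kept it between 0.97 and 2.42. It was 1.25 within pool 2. The mean of log2(CPM + 2) over the list was 4.66, 4.72, 3.82 and 4.98 in old recipients and 2.98, 3.399, 3.07 and 3.38 in young recipients, again without overlap. The water channel Aqp1, which sits in the red cell membrane, had 32.9, 40.4, 33.8 and 34.4 CPM in old and 0, 7.6, 6.42 and 1.63 CPM in young libraries (log2 change 3.17 ± 1.49, SE; edgeR adjusted p = 0.801). Hemgn, a nuclear protein of erythroid progenitors, had 46.8, 46.6, 36 and 29.6 CPM against 20.8, 10, 5.68 and 4.61 CPM (log2 change 1.95 ± 0.78, SE; edgeR adjusted p = 0.801). Both groups of Hemgn and Aqp1 were apart, with all 4 old libraries above all 4 young ones. The carbonic anhydrases Car2 (178 to 268 against 51.4 to 171 CPM) and Car1 (140 to 436 against 1.14 to 127 CPM) were apart as well. Their log2 changes were 1.11 ± 0.54 and 1.68 ± 1.98 (SE), and Car1 had an unadjusted edgeR p of 0.412. Of the 22 members, 4 were higher without overlap, beside 2.47% of all genes. Under the unadjusted threshold were 2 of the 22, both higher, beside 3.01% of all genes. The erythroid master regulator Klf1 overlapped, at 9.26 to 22.9 CPM in old and 0 to 14.1 CPM in young libraries. Globin transcripts overlapped between the groups: haemoglobin genes took 0.0281% ± 0.0186 of counts in old and 0.0215% ± 0.0205 in young libraries (exact permutation p = 0.629), and the log2 change was 0.03 for Hba-a1 and -0.14 for Hba-a2, near-identical copies whose reads counting may divide. In bulk RNA a larger number of cells with an erythroid programme and more such RNA per cell cannot be told apart. Megakaryocyte and platelet genes were higher in 11 of 18, with a median of 0.12 that was -0.12 without old library 1 and -0.06 without old library 3.

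GATA1 drives the erythroid programme through GATA motifs, and the promoter of Hemgn is printed because its groups did not overlap and it holds more than 1 match. AGATAA or TGATAA occurred on either strand in 10 of 18 erythroid genes with a window (55.6%) and in 5664 of all 27025 genes (20.96%). Among tested genes it occurred in 1272 of 9995 (12.73%), with a median log2 change of -0.06 with a match and -0.05 without one. Erythroid genes with a match had a median log2 change of 1.41 and the other 8 one of 1.67. The Hemgn window lies at chr4:46404134-46404433, minus strand, and capitals mark its 2 matches.
Hemgn: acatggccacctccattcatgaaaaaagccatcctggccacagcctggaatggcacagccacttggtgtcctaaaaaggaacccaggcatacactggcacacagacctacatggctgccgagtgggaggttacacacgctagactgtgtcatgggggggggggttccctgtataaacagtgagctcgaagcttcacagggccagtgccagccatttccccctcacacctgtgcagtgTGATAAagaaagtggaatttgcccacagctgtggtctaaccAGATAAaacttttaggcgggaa

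**Figure D4:**
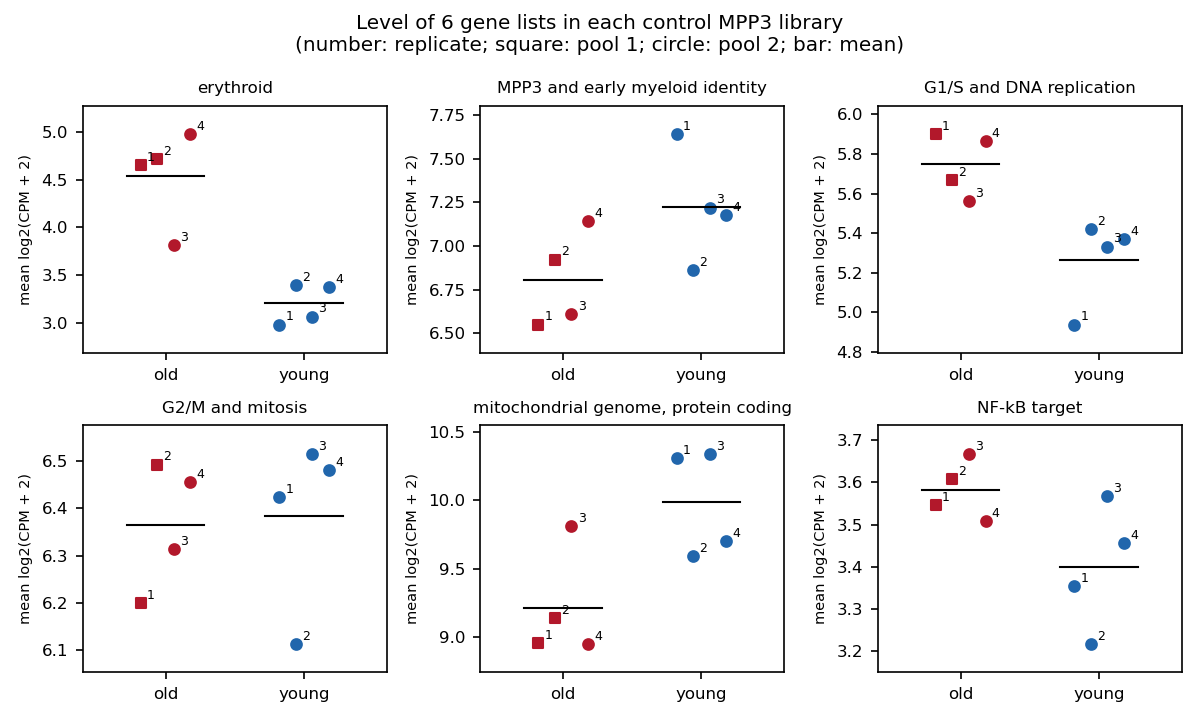
Mean of log2(CPM + 2) over the genes of 6 lists in each library, with the replicate number beside each point, old recipients in red, young in blue, squares for pool 1, circles for pool 2 and the group mean as a bar. Erythroid and G1/S genes do not overlap between the groups, at 3.82 to 4.98 against 2.98 to 3.399 and 5.56 to 5.90 against 4.94 to 5.42. The other 4 lists overlap.

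The list of MPP3 and early myeloid genes lay lower in old recipients, at a median log2 change of -0.31. Of its 28 members 22 were lower and 6 higher. The neutrophil elastase gene Elane (chr10:79886247-79888215), a primary granule protease, had 635, 1484, 963 and 1702 CPM in old and 3640, 1746, 2298 and 2750 CPM in young libraries. Its highest old library was just below its lowest young one, with a log2 change of -1.12 ± 0.54 (SE; adjusted p from edgeR = 0.801). Mpo, the myeloperoxidase of the same granules, overlapped at 7482 to 19989 CPM against 13399 to 20745 CPM. The granulocytic transcription factors Gfi1 (10.8 to 28.9 against 22.6 to 83.4 CPM) and Cebpe (0.255 to 5.15 against 4.94 to 47.3 CPM) were lower on average with overlap. The lectin receptor Clec12a had 52.4 to 170 CPM against 181 to 624 CPM, where young library 1 held the 624 CPM and the other young libraries 181 to 206 CPM. Cebpa, Flt3 and Cd34 were on the other side, with log2 changes of 0.72 ± 0.92, 0.42 ± 0.42 and 0.48 ± 0.42 (SE), and Kit was level at 377 ± 50.1 and 377 ± 74.2 CPM (SD, n = 4). The list kept its sign in all 20 alternatives, but its median was -0.09 without young libraries 1 and 3, where 13 of 28 genes were higher, and -0.12 without TMM scaling or without young library 1, where 12 were. It was -0.19 without old library 1.

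Markers of mature cells that could enter the sort were measured as well, and several of their sums rested on 1 or 2 young libraries. Mature neutrophil genes had a median log2 change of -0.95, but their summed level was 144 to 259 CPM in old and 180 to 255 CPM in young libraries 1 to 3 against 770 CPM in young library 4, and without that library the median was 1.41. With all libraries kept, that median was 0.78 with limma-voom and 1.47 with the replicate number as a block. Stfa1, Stfa2 and Stfa3 were at 0 in all 8 libraries. Plasma cell genes had 16 of 18 members lower (median -1.21, or -0.96 with members at the floor of 3 counts set to their bound), with summed levels of 1480 to 2544 CPM in old and 1543 to 14890 CPM in young libraries. Young library 3 held the 14890, and without it the median was -0.36. Its J chain transcript Jchain was at 1571 CPM, against 165 to 532 CPM in the other young libraries and 121 to 220 CPM in old ones. B cell genes were higher in 7 of 21 (median -0.56) and dendritic cell genes in 2 of 14 (median -0.70), medians that were -0.05 and -0.14 without young library 3. Ighm, the IgM heavy chain, was at 1837 and 1958 CPM in young libraries 1 and 3 and at 218 to 426 CPM in the other 6. The T cell markers Cd3e, Cd3g and Trac, the macrophage markers C1qa, C1qb and C1qc and the stromal markers Bglap and Pdgfra were at 0 in all 8. In all, 5 of 25 T and NK genes, 6 of 23 monocyte and macrophage genes and 4 of 22 stromal and endothelial genes were at 0 throughout. Other members were detected. The T and NK sum was 151 to 286 CPM in old and 262 to 420.5 CPM in young libraries. Monocyte sums were 340 to 712 against 357 to 664 CPM, and stromal sums 511 to 632 against 513 to 579 CPM. Among tested members, T and NK cell genes were higher in 5 of 13 (median -0.35), monocyte and macrophage genes in 7 of 16 (-0.04), mast cell, basophil and eosinophil genes in 3 of 8 (-0.25) and stromal and endothelial genes in 3 of 9 (-0.48). With 1 library left out these medians were not steady: the mast cell median was 0.29 without young library 4 and 0.05 without old library 3, the T and NK median -0.69 without old library 1, the monocyte median 0.52 without young library 1 and the stromal median -0.24 without young library 1 or old library 4. The part of these cells in the differences above was not tested.

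The 13 protein-coding genes of the mitochondrial genome, which encode core subunits of the respiratory chain, were all lower in old recipients, with 9 of them under the unadjusted threshold, beside 3.11% of all genes. The cytochrome oxidase subunit mt-Co2 had 796, 778, 1269 and 783 CPM in old and 2129, 1504, 2030 and 1421 CPM in young libraries (log2 change -0.97 ± 0.25, SE; edgeR adjusted p = 0.801). mt-Nd6 was also apart, at 92.2 to 161 CPM against 179 to 358 CPM, although it lies opposite the other genes and the strand setting of the counts is not given in the sources used here. mt-Co1 had 8258 to 15094 CPM against 13655 to 25403 CPM. The median over the list was -0.77, was -0.38 without young libraries 1 and 3 and -0.47 with pool as a covariate. The 13 genes are cut from long shared precursors and are not independent of each other, and old library 3, at 32180 CPM summed, lay above young libraries 2 and 4 (27870 and 30630 CPM). Nuclear genes of oxidative phosphorylation were divided, with 35 of 75 higher and a median of -0.03 (0.17 without TMM scaling). The ATP synthase subunit Atp5b was at 753 to 911 CPM in old and 512 to 658 CPM in young libraries, and Atp5e at 9.99 to 18.8 CPM against 23.6 to 62.3 CPM. Glycolytic genes were higher in 11 of 24, with lactate dehydrogenase A (Ldha) at 245 to 441 CPM against 119 to 278 CPM. The non-coding nuclear transcripts Xist (3179 to 6837 against 6530 to 9777 CPM) and Malat1 (5502 to 9386 against 8733 to 9794 CPM), singled out after their values were seen, were lower in old recipients as well, with old library 3 the highest old library for both.

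**Figure D5:**
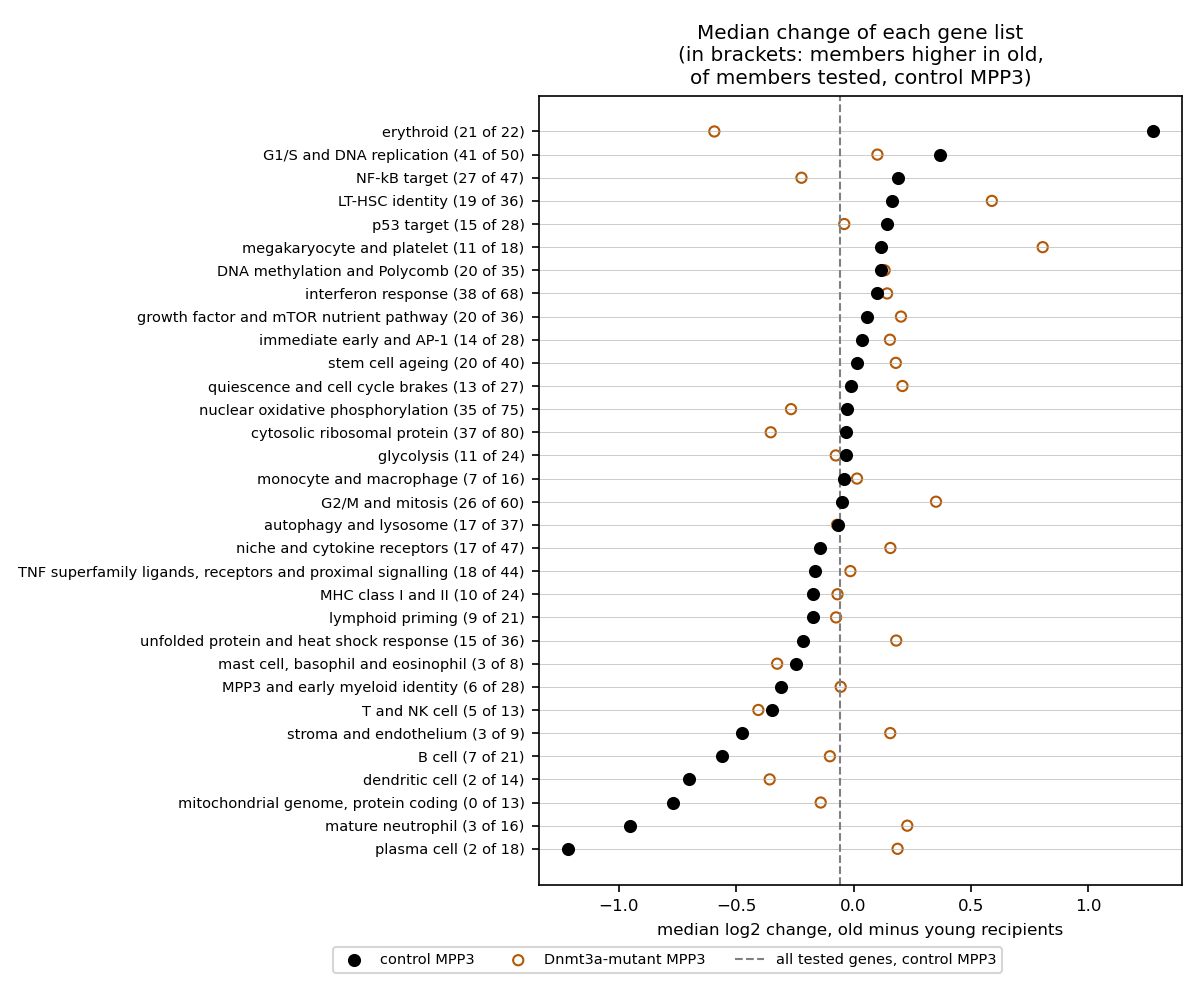
Median log2 change (old minus young) of each of the 32 gene lists in control MPP3 (filled) and in Dnmt3a-mutant MPP3 (open), with the numbers higher and tested in control MPP3 in brackets and a dashed line at the median of all 13933 genes. Among the control medians, the erythroid and G1/S lists lie furthest to the right and the plasma cell list furthest to the left. Medians between -0.2 and 0.2 change sign with scaling or with single libraries in several lists. Those of the mature neutrophil (-0.95) and mast cell (-0.25) lists also change sign in several alternatives. The B cell, stromal and unfolded protein medians do so in 1 alternative each.

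Lists of other programmes had medians between -0.21 and 0.17. LT-HSC identity genes were higher in 19 of 36 (median 0.17, -0.26 without old library 1), with the lipoprotein receptor Vldlr at 57.5 to 78.9 CPM against 5.98 to 57.3 CPM and the transcription factor Nfix at 73.3 to 136 CPM against 137 to 246 CPM. Genes reported to change in aged stem cells were higher in 20 of 40 (median 0.01). Lymphoid priming genes were higher in 9 of 21 (median -0.17, 0.01 without young library 3), with the B and T lineage regulator Ikzf3 at 0 to 6.06 CPM in old and 22.4 to 56.6 CPM in young libraries and the DNA polymerase Dntt at 32.7 to 85 CPM against 5.06 to 44.4 CPM. Among quiescence genes and cell cycle brakes (13 of 27 higher), the INK4 inhibitor Cdkn2d had 2.8 to 8.53 CPM against 9.53 to 97.8 CPM. Young library 1 held the 97.8 CPM, and the other young libraries were at 9.53 to 15.4 CPM. DNA methylation and Polycomb genes were higher in 20 of 35 (median 0.12). Dnmt3a had 91.9 to 118 CPM in old and 47.3 to 234 CPM in young libraries (log2 change -0.37 ± 0.37, SE), and its sister enzyme Dnmt3b had 34.8 to 96.2 CPM against 35.9 to 44.6 CPM. Ribosomal protein genes (37 of 80), autophagy and lysosome genes (17 of 37), p53 targets (15 of 28), MHC genes (10 of 24), cytokine receptors (17 of 47), growth factor and mTOR genes (20 of 36) and unfolded protein genes (15 of 36) had medians between -0.21 and 0.14.

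Mutant MPP3 went through the same recipient contrast in other animals, and no gene was called there by edgeR (56 by DESeq2; edgeR 0 of 13933, 0%; 735 genes or 5.28% at an unadjusted p under 0.05; 52.7% positive). The test of the difference between the genotypes called 0 genes with edgeR (0%; 752 genes or 5.4% unadjusted; smallest adjusted p 0.861) and 0 with limma-voom, while DESeq2 called 41. Values of the 2 genotypes are therefore given side by side. Nfkbie was at 3.00 to 19.7 CPM in old and 7.51 to 19.6 CPM in young mutant libraries, so its log2 change of 0.22 ± 0.75 (SE) stood beside 3.19 in controls (difference -2.97 ± 1.03, SE; edgeR adjusted p = 0.87). Tnf had a log2 change of 2.67 ± 1.35 (SE) in mutants, where young libraries were at 1.66 to 1.78 CPM and old ones at 1.85 to 33.7 CPM. Aqp1 was at 0 to 4.31 CPM in old and 0 to 23.5 CPM in young mutants. Erythroid genes were higher in 9 of 22 in mutants (median -0.59, against 21 of 22 and 1.27 in controls), G1/S genes in 31 of 50 (0.10 against 0.37), mitochondrial genes in 4 of 13 (-0.14 against -0.77) and early myeloid genes in 14 of 28 (-0.05 against -0.31). Kit, which overlapped fully between the control groups, had 314 to 494 CPM in old and 170 to 232 CPM in young mutants (difference 0.89 ± 0.33, SE; edgeR adjusted p = 0.891).

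LT-HSC of control marrow gave the third view, partly from the same recipients, which the fit does not model. The difference between the recipient changes of MPP3 and LT-HSC was called for 0 of 16309 genes by edgeR (0%; 1479 genes or 9.07% unadjusted; smallest adjusted p 0.471), for 3 by limma-voom and for 296 by DESeq2. Nfkbie had a log2 change of -0.08 ± 1.10 (SE) in LT-HSC and Ppp1r2 one of 0.15 ± 0.53 (SE). Tnf was at -2.93 ± 1.96 (SE) in LT-HSC beside 3.90 in MPP3 (difference 6.84 ± 2.70, SE; edgeR adjusted p = 0.473). Elane was at 5.72 ± 1.90 (SE) beside -1.12 (difference -6.84 ± 2.38, SE; edgeR adjusted p = 0.471). G1/S genes were higher in 27 of 50 in LT-HSC (median 0.02), erythroid genes in 10 of 22 (-0.35) and mitochondrial genes in 10 of 13 (0.13), each beside the MPP3 values above. Early myeloid genes were higher in 16 of 28 in LT-HSC (median 0.38). Mature neutrophil genes were higher in 16 of 16 in old LT-HSC (median 6.68), and the part of such cells in the LT-HSC values was not tested.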

How the data were processed

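The files held 1 table of deposited gene counts for the 28 libraries, whole-number counts per gene that the authors made with RSEM 1.2.12 and Bowtie2 2.2.0 on GRCm38, per the submitters' processing notes, which also name SAMtools 0.1.18 and edgeR 3.5.3. No columns of other samples were present. The annotation used for the counts, its strand setting and the sex of the mice are not given in the sources used here. Of 38924 gene IDs, 37607 (96.62%) were given a symbol from GENCODE M21, which also supplied coordinates.

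Counts were tested in R 4.3.3 with edgeR 4.0.16 (filterByExpr, TMM, robust quasi-likelihood fit, 1 coefficient per group over the 15 MPP3 libraries, or over all 28 for the difference from LT-HSC), with Benjamini-Hochberg adjustment over all tested genes and a threshold of 0.05. The SE of an edgeR log2 change was derived as its absolute value divided by the square root of the quasi-likelihood F. It is therefore approximate. limma 3.58.1 (voom) and DESeq2 1.42.0 were alternatives, as were other scalings, filters and libraries left out. A step on simulated data (13933 genes, 200 changed) tested the script. In it edgeR called 4 of 13733 unchanged genes and DESeq2 called 67. DESeq2 called 0, 21, 35 and 44 of the 50 genes given a log2 change of 1, 2, 4 and 6. Named genes had a symbol, a mean of at least 10 CPM and CPM without overlap, and were the 12 with the smallest p in each direction, leaving out predicted models, pseudogenes and immunoglobulin segments. To these came 12 fixed genes and up to 3 members per list and direction. Of these, 1 lower gene is not reported here. Other genes in the text were chosen after their values were seen. The members, the lists and the tests were chosen with earlier results of these data known. Replicate numbers do not pair the groups: deviations of same-numbered libraries from their group means correlated at -0.069, -0.002, -0.018 and 0.038.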

Additional observations from a re-analysis of the deposited data

Results flagged for a closer look

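In 13 of 152 groups of 4 values examined (8.55%), 1 library lay far from the other 3 of its group. The limit used was set for about 1 in 20 groups of independent, normally distributed values. CPM need not follow that form and some groups share genes, so these rates are not compared. Young library 4 had the highest summed level of mature neutrophil genes (769.6 CPM, next 255 CPM) and of mast cell, basophil and eosinophil genes (612.8 CPM, next 154.5 CPM). Young library 3 had the highest sums of plasma cell genes (14890 CPM, next 3324 CPM) and of ribosomal protein genes (25690 CPM, next 19900 CPM), and the highest Tnf among young libraries (3.667 CPM, next 0.5426 CPM). Old library 3 had the highest sum of mitochondrial protein-coding genes (32180 CPM, next 20590 CPM), the highest mt-Co2 (1269 CPM, next 796.2 CPM) and the highest Abcf1 (220.5 CPM, next 100.1 CPM) of the old group. Old library 2 had the highest sum of DNA methylation and Polycomb genes (3240 CPM, next 2947 CPM), the highest Glb1l (195.6 CPM, next 18.98 CPM), the highest Rasgrp3 (2.104 CPM, next 1.291 CPM) and the lowest Pigc (2.104 CPM, next 3.311 CPM). Young library 1 had the highest Fam160a2 (109 CPM, next 21.57 CPM).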

How the results depend on the processing

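edgeR called 0 genes for recipient age in control MPP3 in every alternative that used it, limma-voom also called 0, and DESeq2 called 31. DESeq2 called 56 genes in mutant MPP3, 41 for the difference between genotypes and 296 for the difference between cell types, where limma-voom called 3. The 853 genes at an unadjusted p under 0.05 became 1638 without a filter on low counts, 567 with a mean of at least 50 counts, and 547 without young libraries 1 and 3, an alternative chosen after seeing the data. Leaving out 1 library gave 626 to 1018 such genes and 0 adjusted calls throughout. With the replicate number as a block the count was 732 with 0 adjusted calls, and the numbers share no pairing. The share of these genes that was higher in old recipients was 49.2%, but 74.0% without TMM scaling, 63.6% with limma-voom, 61.3% within pool 2 and 39.2% with the filter at 50. The haemoglobin share differed by 0.00665 percentage points, and by -7.455e-05 to 0.0142 with 1 library left out. Of 95 genes checked, 10 changed sign in some setting. Kit (-0.00) was at 0.007323 with DESeq2, 0.007378 with RLE factors, 0.005361 without a filter, 0.004887 with the block, 0.21 without TMM and 0.02449 without mitochondrial and ribosomal RNA genes. It ran from -0.1042 to 0.12 with 1 library left out and was at 0.13 without young 1 and 3. Tnfrsf1b was at -0.0917 with limma-voom, from -0.54 to 0.4079 with 1 library left out and at -0.26 without young 1 and 3. S100a9 was at 1.30 with limma-voom and from -2.394 to 1.41 with 1 library left out, the highest without young 4. Slamf1 was at 0.22 with pool as covariate, 0.40 within pool 2 and from -2.077 to 1.54 with 1 library left out. Il1r1 was at -0.14 within pool 2 and from -0.27 to 0.837 with 1 library left out. Cd34 was at -0.04143 within pool 2 and Cd48 at -0.12 with pool as covariate. Dnmt3a ran from -0.6494 to 0.001332 with 1 library left out. Rps19 and Ighm were at 0.23 and 0.34 without young 1 and 3. The cause was not tested in any of these. Depth of 6.30 to 9.05 M counts limits the genes at a few CPM.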
